A study of Mus musculus with 4 samples.

Results

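The genes described here serve protein folding in the endoplasmic reticulum (ER) and the XBP1 and ATF6 branches of the ER stress response. They are Xbp1, Atf6, Hspa5, Hsp90b1, Calr, Canx, Pdia3, Pdia4, Pdia6 and Herpud1, matched by symbol. All 10 were found in both deposited tables, each as a single locus, among 11728 genes named in both, and all 10 were among the 10261 genes tested. RNA-seq was done on mouse embryonic stem cells, cultured pluripotent cells of the early embryo, that carry Rosa26CreER (a Cre recombinase activated by tamoxifen) and are Chd1fl/-, with 1 floxed and 1 null allele of the chromatin remodeler Chd1. Control cells received ethanol (EtOH) and so keep 1 functional allele. Chd1-/- cells received 1 µM tamoxifen for 48 to 72 h, and both were then expanded without tamoxifen for 3 to 5 passages in serum/LIF medium. Tamoxifen exposure, Cre activity and loss of Chd1 cannot be told apart in this design. The labels name set 1 and set 2, with 1 control and 1 Chd1-/- library in each (n = 2 per group). The protocol mentions 2 independently derived lines but does not say which set is which line, so the spread between sets may include technical spread.

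The ER is the compartment where secreted and membrane proteins fold. When unfolded proteins build up there, the sensor IRE1 splices the Xbp1 mRNA into the form that encodes an active transcription factor, and ATF6, itself an ER membrane protein, moves to the Golgi and is cut to release its active part. Both factors act on promoters of ER chaperones, foldases and degradation genes, the best known element being the ER stress response element (ERSE), in which a CCAAT box and a CCACG box are spaced by a fixed distance. Cells of the early epiblast divide fast and display many glycoproteins, which need this machinery for folding.

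Promoter sequences of the members are shown because the ERSE is what several of them share beyond their names. RefSeq promoters (build GRCm38.p6, 250 bases before to 50 after a gene's start) were held for 9 of the 10 members, all but Atf6. They were searched on both strands for the ERSE (CCAAT, then any 9 bases, then CCACG), for ERSE-II (ATTGG, then any 1 base, then CCACG, so that it shares the CCACG box with the ERSE and carries the CCAAT box reversed) and for the core of the unfolded protein response element (TGACGTGG). The ERSE was found in 5 of the 9 members, Hspa5, Hsp90b1 (2 matches), Calr, Canx and Pdia6, against 39 of all 32851 promoters of this length (0.119%). ERSE-II was found in Herpud1, against 12 of all promoters (0.0365%). The unfolded protein response element core was in none of the 9, against 222 promoters (0.676%). No match overlapped another. Xbp1, Pdia3 and Pdia4 held none of these motifs in this window. A match is a string of letters and was not tested for binding in these cells.

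The ERSE matches, each with up to 40 bases on either side and read 5′ to 3′ on the gene's strand, are as follows, with the boxes in capitals. Where the element lies on the opposite strand (the downstream match of Hsp90b1, and Calr), the boxes read CGTGG and ATTGG.
Hspa5 (chr2:34771985-34772083, plus strand): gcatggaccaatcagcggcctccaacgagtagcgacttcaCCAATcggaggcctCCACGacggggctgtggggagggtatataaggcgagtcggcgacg
Hsp90b1, upstream match (chr10:86705598-86705694, minus strand): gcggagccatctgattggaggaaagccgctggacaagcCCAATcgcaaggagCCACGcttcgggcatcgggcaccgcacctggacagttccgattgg
Hsp90b1, downstream match (chr10:86705493-86705591, minus strand): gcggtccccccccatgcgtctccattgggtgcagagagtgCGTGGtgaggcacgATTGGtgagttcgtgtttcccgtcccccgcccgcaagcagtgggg
Calr (chr8:84847035-84847133, minus strand): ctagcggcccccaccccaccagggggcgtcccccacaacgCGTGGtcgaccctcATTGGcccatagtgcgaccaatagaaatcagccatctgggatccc
Canx (chr11:50325760-50325858, minus strand): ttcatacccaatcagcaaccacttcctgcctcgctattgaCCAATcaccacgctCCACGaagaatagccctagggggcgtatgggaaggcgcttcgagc
Pdia6 (chr12:17266451-17266549, plus strand): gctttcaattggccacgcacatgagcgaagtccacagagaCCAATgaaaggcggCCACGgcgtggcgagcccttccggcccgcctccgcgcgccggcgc

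The matches began 65 bases before the start in Hspa5, 212 and 107 in Hsp90b1, 162 in Calr, 145 in Canx and 98 in Pdia6. The ERSE-II match of Herpud1 began 52 bases before the start.
Herpud1 (chr8:94386337-94386427, plus strand): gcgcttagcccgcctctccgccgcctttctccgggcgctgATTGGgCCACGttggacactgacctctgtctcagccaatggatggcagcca

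Values were taken as FPKM, fragment numbers per length of transcript and per sequencing depth. The unit was inferred, and on that reading levels can be compared between genes. Whether the ERCC spike-in transcripts entered the scaling is not stated, so it is not known that depth alone set the scale of each library. Libraries are named by group and set, so that control 1 is the control of set 1. The targeted gene followed its labels: Chd1 was at 27.6 FPKM in control 1 against 5.71 in Chd1-/- 1, and at 17.9 in control 2 against 8.52 in Chd1-/- 2. Of 15 markers of pluripotent cells, 15 were listed in both tables, with summed levels of 3176 and 3742 FPKM in control cells and 2377 and 2121 in Chd1-/- cells. The highest of them was Dppa5a, with a mean of 1412 FPKM. In the limma test on values as deposited, described below, 11 of the 15 fell and 0 rose, where 9.80% of all tested genes fell. Of 14 markers of primitive endoderm, a secretory lineage, 8 were listed in both tables. Their summed levels were 134 and 141 FPKM in control cells and 118 and 111 in Chd1-/- cells. Of these, Sparc was the highest (mean 58.6 FPKM), while Gata4 was at 0.116 to 0.379 FPKM over the libraries and Dab2 at 0.335 to 1.18. In the same limma test 1 of the 6 tested fell and 0 rose. Of the markers not listed in both tables, Sox7, Sox17 and Foxa2 were listed in neither, and Gata6, Pdgfra and Cubn were listed in set 2 alone. Of 12 markers of fibroblasts (feeder cells) 9 were in both tables, summing to 8.40 and 15.9 FPKM in control cells and 7.83 and 10.9 in Chd1-/- cells. The part of such cells in the results below was not tested. In these bulk samples, fewer cells of a type and less RNA per cell cannot be told apart. FPKM summed over all loci was lower in Chd1-/- cells, at 79.9% of control in set 1 and 72.0% in set 2, and the median gene had a log2 ratio of Chd1-/- over control of -0.46 in set 1 and -0.33 in set 2.

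In control cells 6 of the 7 folding genes, all but Pdia3, were above Xbp1, Herpud1 and Atf6 in both libraries. Hspa5 was at 317 ± 26.0 FPKM (mean ± SD, n = 2 control libraries throughout this paragraph), above 97.9% of all tested genes. Calr was at 308 ± 21.3, and the ranges of these genes overlapped. Hsp90b1 followed at 192 ± 2.47, Pdia6 at 182 ± 1.06, Canx at 131 ± 2.82 and Pdia4 at 94.8 ± 9.93, each apart from its neighbours in both libraries. Pdia3 was at 39.5 ± 18.0, Xbp1 at 24.4 ± 12.0 and Herpud1 at 16.5 ± 4.48. Pdia3 was above Xbp1 in control 1 and below it in control 2, so the order of these genes is not set by these data. Xbp1 was above Herpud1 within each library, though their ranges overlapped across the sets. Atf6 was the lowest at 5.74 ± 1.44, above 32.9% of tested genes. The plot of levels shows the same order and the change within each set. Because each table was scaled separately, levels in different sets may differ by their scaling.

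**Figure D1:**
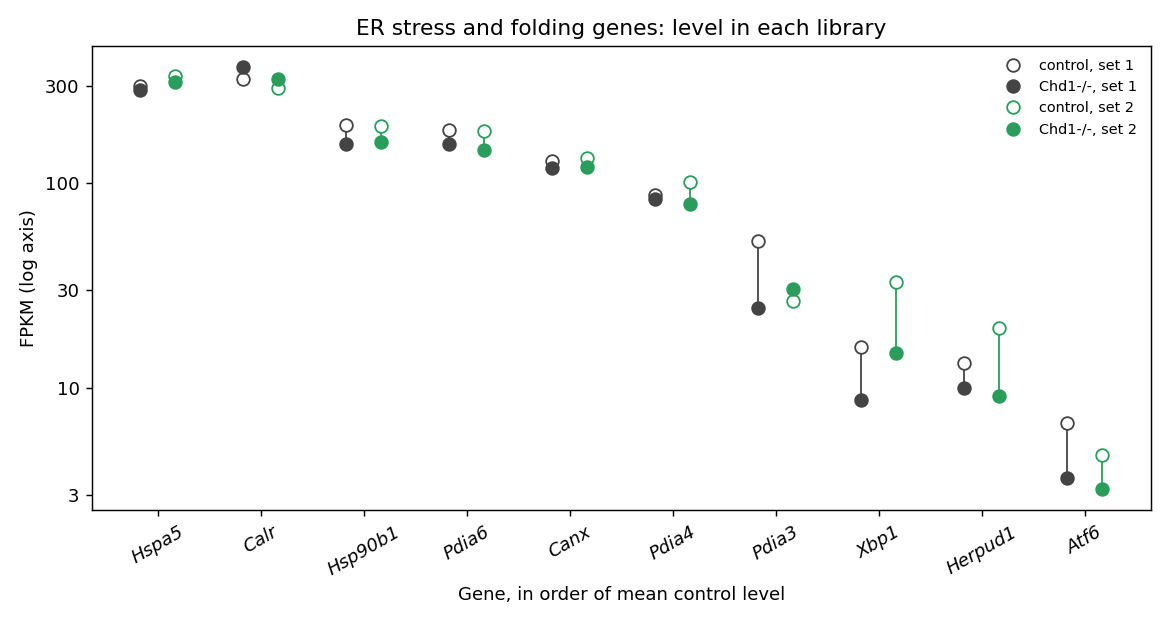
FPKM (log axis) of the 10 genes in each of the 4 libraries, ordered by mean control level, with control as open and Chd1-/- as filled circles, set 1 in grey and set 2 in green, and a line joining the libraries of a set. Calr is the gene whose filled circles lie above the open ones in both sets, and Xbp1, Herpud1 and Atf6 are lower in both.

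The question asked of the data was whether these genes changed when Chd1 was lost. On the values as deposited, 2 of the 10 genes fell, Xbp1 and Herpud1, and 0 rose (limma with set as a block, Benjamini-Hochberg adjusted p under 0.05 over all 10261 genes). Over all tested genes 9.80% fell and 0.0682% rose. Of the 10, 8 were lower in both sets, against 72.4% of all genes. With each library scaled to its own total 3 were lower and 5 higher in both, and the share of all genes was not counted there. Under that scaling the median gene was at -0.14 in set 1 and 0.14 in set 2, and 37 of all genes fell and 50 rose. On values as deposited the median log2 ratio of the 10 was -0.28 in set 1 and -0.29 in set 2, that is 0.825 and 0.818 of control. Scaled to library totals, where neither Xbp1 nor Herpud1 passed, both medians turned positive (0.047 and 0.18). The 7 chaperones and isomerases had medians of -0.12 and -0.14, whereas the other 3, Xbp1, Atf6 and Herpud1, had medians of -0.86 and -1.09. These 3 share no single role and lay at lower levels than most of the 7. Against genes of similar level, as described below, the medians were 0.10 and 0.22 for the 7 and -0.24 and -0.74 for the 3. The groups overlapped, since Pdia3 had the lowest ratio of the 10 in set 1, and the difference was not tested.

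Xbp1, the transcription factor of the IRE1 branch, was at 15.9 FPKM in control 1 against 8.72 in Chd1-/- 1, and at 32.9 in control 2 against 14.9 in Chd1-/- 2. It was the lower of the pair in both sets, and the groups did not overlap, although Chd1-/- 2 came close to control 1. The change was to 0.547 of control in set 1 and 0.453 in set 2. It fell by 1.0 on the log2 scale (limma SE 0.23, n = 2 sets, adjusted p = 0.0012), the largest change among the 10. Scaled to library totals the change was -0.60 and did not pass (limma adjusted p = 0.36). The locus value sums spliced and unspliced Xbp1 mRNA, so it does not measure IRE1 activity.

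Atf6, the membrane-bound transcription factor of the other branch, was at 6.76 FPKM in control 1 against 3.63 in Chd1-/- 1, and at 4.72 in control 2 against 3.21 in Chd1-/- 2. Both Chd1-/- libraries lay below both control libraries. The mean log2 ratio was -0.71 (SE 0.37) and did not pass the test (limma adjusted p = 0.18). Its SE was the widest of the 10, at the lowest level of the 10.

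Herpud1, an ER membrane protein that helps to clear misfolded proteins, was at 13.3 FPKM in control 1 against 9.98 in Chd1-/- 1, and at 19.7 in control 2 against 9.19 in Chd1-/- 2. Both Chd1-/- libraries were below both control libraries. The fall was uneven, to 0.748 of control in set 1 and 0.467 in set 2. Its mean log2 ratio was -0.75 (SE 0.25, limma adjusted p = 0.0317). It did not pass scaled to library totals (-0.36, limma adjusted p = 0.99) or with a mean of at least 5 FPKM (limma adjusted p = 0.068).

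Hspa5, which encodes BiP, the main Hsp70 of the ER and a regulator of the stress sensors, was at 299 FPKM in control 1 against 286 in Chd1-/- 1, and at 336 in control 2 against 312 in Chd1-/- 2. The groups overlapped, since Chd1-/- 2 was above control 1. Its mean log2 ratio of -0.09 (SE 0.17) did not pass (limma adjusted p = 0.71). Hsp90b1, the Hsp90 of the ER (GRP94), was at 194 FPKM in control 1 against 155 in Chd1-/- 1, and at 190 in control 2 against 159 in Chd1-/- 2. Those groups did not overlap, with Chd1-/- lower by a similar step in each set, but the mean log2 ratio of -0.29 (SE 0.17) did not pass (limma adjusted p = 0.23). Scaled to library totals, both genes had positive changes (0.31 for Hspa5 and 0.11 for Hsp90b1).

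Calr encodes calreticulin, a soluble chaperone that binds the sugars of new glycoproteins and also holds calcium. It was at 324 FPKM in control 1 against 370 in Chd1-/- 1, and at 293 in control 2 against 323 in Chd1-/- 2. It was the 1 gene of the 10 with a higher value in both sets, where 2.81% of all tested genes were higher in both. Across sets the groups overlapped by a narrow margin. The mean log2 ratio was 0.17 (SE 0.17) and did not pass (limma adjusted p = 0.49). With each library scaled to its total it was 0.57 and passed (limma adjusted p = 0.0150). Canx encodes calnexin, the membrane-bound partner of calreticulin. It was at 129 FPKM in control 1 against 119 in Chd1-/- 1, and at 133 in control 2 against 120 in Chd1-/- 2. Both Chd1-/- libraries were slightly lower, and the mean log2 ratio of -0.13 (SE 0.17) did not pass (limma adjusted p = 0.58); scaled to totals it was 0.27.

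The disulfide isomerases join and rearrange the cysteine bridges of folding proteins. Pdia6 was at 182 FPKM in control 1 against 156 in Chd1-/- 1, and at 181 in control 2 against 145 in Chd1-/- 2. The groups did not overlap, and the mean log2 ratio of -0.27 (SE 0.17) did not pass (limma adjusted p = 0.25). Pdia4 (ERp72) was at 87.8 FPKM in control 1 against 83.9 in Chd1-/- 1, and at 102 in control 2 against 79.0 in Chd1-/- 2. It was lower in both sets, more so in set 2, and the mean log2 ratio of -0.22 (SE 0.17) did not pass (limma adjusted p = 0.37). Scaled to totals, the changes were 0.12 for Pdia6 and 0.18 for Pdia4.

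Pdia3 (ERp57), the isomerase that works with calreticulin and calnexin, was the exception among the folding genes. It was at 52.2 FPKM in control 1 against 24.7 in Chd1-/- 1, and at 26.7 in control 2 against 30.4 in Chd1-/- 2. It was lower in set 1 (log2 ratio -1.08) and slightly higher in set 2 (0.18), and control 1 alone stood apart from the other 3 libraries. The mean log2 ratio of -0.45 did not pass (SE 0.19, limma adjusted p = 0.11), and this SE does not hold the gene's own spread between the sets (SD 0.89). The plot of set 1 against set 2 shows Pdia3 away from the other folding genes.

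**Figure D2:**
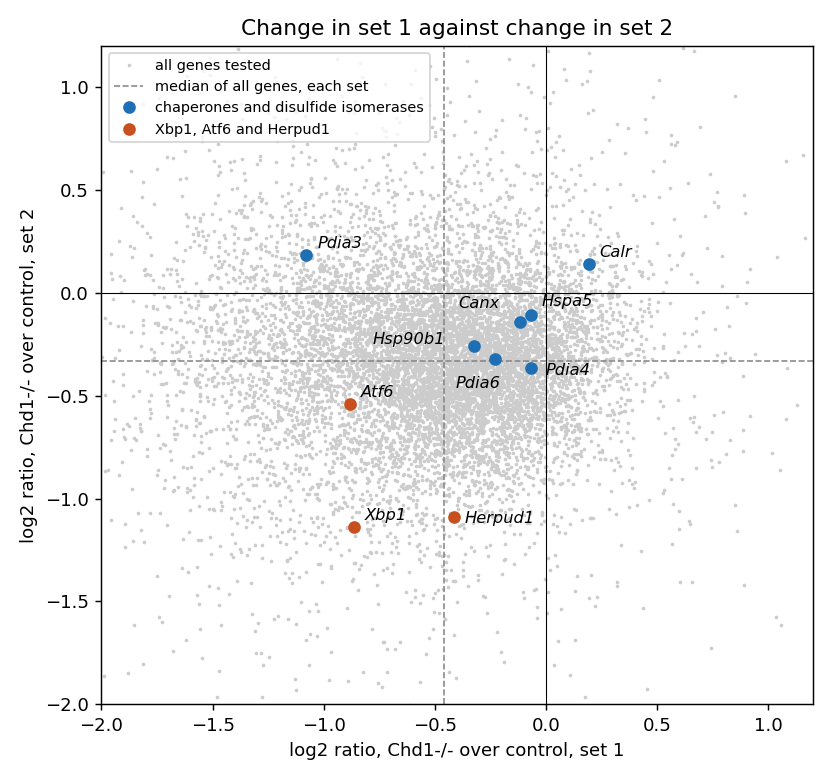
Log2 ratio of Chd1-/- over control in set 1 (x axis) and set 2 (y axis) for all tested genes (grey), the 7 chaperones and isomerases (blue) and Xbp1, Atf6 and Herpud1 (orange), with the medians of all genes as dashed lines; 220 genes lie outside the axes. Of the blue points, 6 lie between -0.37 and 0.19 on both axes and Pdia3 lies far to the left, while the orange points are lower in both sets.

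These calls depend on the variance model. Each limma SE on values as deposited follows the trend of variance on level and does not hold the gene's own spread between the sets. As an SD of the log2 ratios, that spread was 0.19 for Xbp1 (SE 0.23) and 0.48 for Herpud1 (SE 0.25). Without the block, and with 1 common prior variance, 0 members and 0 of all genes passed in limma (1043 and 1718 genes at an unadjusted p under 0.05, against 2995), and with a mean of at least 5 FPKM Xbp1 alone passed. With 1 set there is no test, and each set's ratio is given above.

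In amount of transcript, the 10 genes summed to 1304 FPKM in control 1 and 1216 in Chd1-/- 1, and to 1319 in control 2 and 1196 in Chd1-/- 2. This was 93.2% of control in set 1 and 90.7% in set 2, above the 79.9% and 72.0% of the whole libraries. The whole libraries are not matched to these genes in level. Against genes of similar level, as described below, the median departure was -0.01 in set 1 and 0.08 in set 2 for the 10 genes. Their share of all FPKM was 0.223% in control 1 against 0.260% in Chd1-/- 1, and 0.183% in control 2 against 0.231% in Chd1-/- 2. The 7 folding genes made up nearly all of these sums, with 94.1% and 92.6% of their control sums.

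The change varied with expression level, and in opposite directions in the sets. Genes near the level of Atf6 had a median ratio of -0.64 in set 1 and -0.23 in set 2. Genes near the level of Hspa5 had -0.18 and -0.42. Each gene was therefore set against neighbours of similar level in the same set, the 200 next below and the 200 next above it (fewer above for the highest genes). A departure is the gene's log2 ratio minus the median ratio of these neighbours. Of the 10 genes, 4 were above their neighbours in both sets, Hspa5, Calr, Canx and Pdia4, against 26.6% of all tested genes. Xbp1, Atf6 and Herpud1 were below in both, against 26.5% of all genes, and Hsp90b1, Pdia3 and Pdia6 changed side between sets. The median departure of the 10 was -0.01 in set 1 and 0.08 in set 2. The test of departures (limma, as above) called 0 of the 10, and it called 0.00975% of all genes, which is 1 gene of 10261. The deleted gene Chd1, with departures of -1.85 and -0.70, did not pass it either (limma adjusted p = 0.25). A result of 0 calls therefore cannot show that the 10 genes kept to their neighbours. An unadjusted p under 0.05 was found for 2 of the 10, Xbp1 and Calr, and for 764 of all genes.

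Xbp1 departed from its neighbours by -0.43 in set 1 and -0.76 in set 2 (mean -0.59, SE 0.20, limma adjusted p = 0.53). In set 1, 11.5% of its neighbours had a lower ratio, and in set 2 0.75% did. Calr departed by 0.39 and 0.55 (mean 0.47, SE 0.13, limma adjusted p = 0.43), with 94.8% and 98.0% of its neighbours lower. So both stood near an edge of their neighbours, on opposite sides, without passing over all genes.

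Hspa5 departed by 0.11 and 0.31, with 69.5% and 86.9% of its neighbours lower, and Canx by 0.10 and 0.22, with 63.5% and 82.0% lower. Pdia4 departed by 0.13 and 0.01. Hsp90b1 (-0.11 and 0.11) and Pdia6 (-0.01 and 0.05) lay close to the middle of their neighbours in both sets. Herpud1 was at its neighbours' median in set 1 (-0.01) and well under it in set 2 (-0.74, with 1.75% of neighbours lower). Atf6 departed by -0.24 and -0.31, which left 29.2% and 23.8% of its neighbours below it. For Atf6, most of the log2 ratio in set 1 was shared by its neighbours, whose median there was -0.64. Pdia3 went from -0.79 in set 1, with 3.00% of neighbours lower, to 0.55 in set 2, with 98.5% lower.

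**Figure D3:**
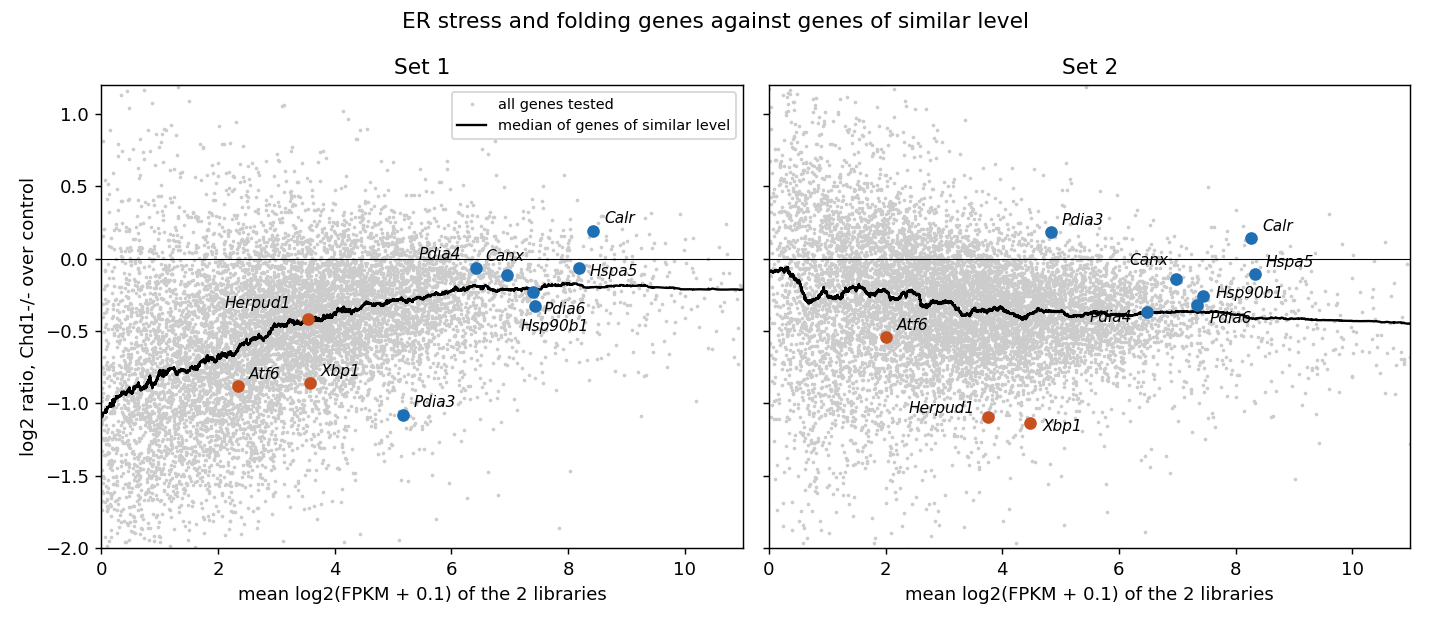
Log2 ratio of Chd1-/- over control (y axis) against the mean log2(FPKM + 0.1) of the 2 libraries of a set (x axis), for set 1 (left) and set 2 (right), with all tested genes in grey, the running median of genes of similar level as a black line, the 7 chaperones and isomerases in blue and Xbp1, Atf6 and Herpud1 in orange; 405 and 206 genes lie outside the axes. Calr lies above the line and Xbp1 below it in both sets, while Pdia3 lies below it in set 1 and above it in set 2.

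The 5 genes with an ERSE match shown above, Hspa5, Hsp90b1, Calr, Canx and Pdia6, had log2 ratios between -0.32 and 0.19 in set 1 and between -0.32 and 0.14 in set 2. Their medians were -0.12 and -0.14, beside -0.45 and -0.33 for the 7780 tested genes with a promoter entry. These 5 are highly expressed, and against genes of similar level their median departures were 0.10 and 0.22. Of the 5, 0 passed the test on values as deposited. The ERSE-II gene Herpud1 fell, as did Xbp1, which had no match in the window. The other tested genes with an ERSE match, 9 in number, had lower medians of -0.81 and -0.53. Against genes of similar level their median departures were -0.03 and -0.22. On values as deposited 2 of them fell, Syvn1 (mean log2 ratio -1.30, limma adjusted p = 0.0414) and Zfp57 (-0.81, limma adjusted p = 0.0026). Of the 7780 tested genes with a promoter entry, 731 fell. The change of Syvn1 lay almost wholly in set 1 (log2 ratios -2.51 and -0.08). Of these 9, Creld2, a chaperone-like protein of the ER, stayed near its control level in both sets (log2 ratios 0.05 and -0.06). Derl3, of the degradation channel, had log2 ratios of 0.69 and -0.26 at low levels of 0.986 to 1.65 FPKM. The 7 other tested genes with an ERSE-II match had medians of -0.27 and -0.39, and 1 of them fell, Rcl1 (mean log2 ratio -0.60, limma adjusted p = 0.0247), beside the same 731 of 7780. Among the rest of the 7, Lgalsl had log2 ratios of -0.81 and -1.15 and Dnajb11, the BiP partner ERdj3, of 0.25 and 0.01, and neither passed. These genes were named after their values were seen, and the comparison between genes with and without a match was not tested.

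A wider list of 109 ER genes in 6 functional groups was examined in the same fit. Of these, 103 were tested, 1 was under the filter on low values (Ern1, the gene of IRE1, at 0.856 and 0.965 FPKM in control cells and 0.537 and 1.08 in Chd1-/- cells), and 5 were not found as a single locus in both tables. Of the 103, 7 fell and 0 rose, where 9.80% of all genes fell. With a mean of at least 5 FPKM Ppp1r15b alone of the 7 passed, and with a pseudocount of 1 Syvn1, Srpr and Ssr2 did not. Their median log2 ratios were -0.29 in set 1 and -0.33 in set 2. Against genes of similar level 0 of the 103 passed (limma), with 5 at an unadjusted p under 0.05, beside 764 of all 10261 genes.

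Sensors and signalling genes of the stress response had the lowest medians of the 6 groups, -0.64 in set 1 and -0.48 in set 2. Of 10 tested 2 fell, where 9.80% of all genes fell. Against genes of similar level their median departures were smaller, -0.19 and -0.16. Of the 10, 6 were below such genes in both sets and 1 above, beside 26.5% and 26.6% of all genes. Atf4, a transcription factor whose translation rises under stress, was at 385 FPKM in control 1 against 305 in Chd1-/- 1, and at 579 in control 2 against 273 in Chd1-/- 2 (mean log2 ratio -0.71, SE 0.17, limma adjusted p = 0.0027). Ppp1r15b, a phosphatase subunit that reverses the block of translation, stood at 39.2 and 24.1 FPKM in control cells and 19.5 and 15.9 in Chd1-/- cells (-0.80, SE 0.21, limma adjusted p = 0.0052). The proteases that cut ATF6 are of interest beside Atf6 and were named for that role. Mbtps1 had log2 ratios of -0.57 and -0.41 and Mbtps2 of -1.35 and -0.32, and neither passed (limma adjusted p = 0.085 and 0.19).

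Among co-chaperones and genes of the lectin cycle, 0 of 19 passed on values as deposited (limma, 4 at an unadjusted p under 0.05). Over all 10261 genes 9.80% fell, and 2995 were at an unadjusted p under 0.05. Of the 19, 9 were above genes of similar level in both sets and 2 below, beside 26.6% and 26.5% of all genes. The medians were -0.20 and -0.30. Dnajc3 (p58IPK), which had the largest mean change with 1 sign in both sets, had a mean log2 ratio of -0.53 (SE 0.30, limma adjusted p = 0.22). Among the other disulfide isomerases and oxidases 0 of 16 passed (limma, 5 at an unadjusted p under 0.05), with medians of -0.30 and -0.43. Of the 16, 4 were above genes of similar level in both sets and 6 below. Pdia5 was at 2.69 and 1.39 FPKM in control cells and 0.677 and 0.879 in Chd1-/- cells (mean log2 ratio -1.23, SE 0.67, limma adjusted p = 0.20).

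Of 24 genes of ER-associated degradation, which returns misfolded proteins to the cytosol for destruction, 1 fell, where 9.80% of all genes fell. The gene that fell was Syvn1, the ubiquitin ligase HRD1, at 6.94 FPKM in control 1 and 1.13 in Chd1-/- 1 but at 3.01 in control 2 and 2.83 in Chd1-/- 2. Its change lay almost wholly in set 1 (log2 ratios -2.51 and -0.08), and it missed the threshold with no filter on low values (limma adjusted p = 0.055). The medians of the group were -0.39 and -0.29. Of the 24, 8 were above genes of similar level in both sets and 4 below, beside 26.6% and 26.5% of all genes.

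Of 23 genes of translocation and signal peptide cleavage 3 fell, where 9.80% of all genes fell. The group medians were -0.23 and -0.40. Against genes of similar level 7 were above in both sets and 6 below, beside 26.6% and 26.5% of all genes. Srpr, the receptor of the signal recognition particle, had a mean log2 ratio of -0.59 (SE 0.20, limma adjusted p = 0.0419). Sec61g, a subunit of the translocation channel, was at 210 FPKM in control 1 against 165 in Chd1-/- 1, and at 221 in control 2 against 135 in Chd1-/- 2 (-0.53, SE 0.17, limma adjusted p = 0.0280). Ssr2, of the translocon-associated complex, was at 220 FPKM in control 1 against 176 in Chd1-/- 1, and at 209 in control 2 against 134 in Chd1-/- 2 (-0.48, SE 0.17, limma adjusted p = 0.0457).

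Of 11 genes of the oligosaccharyl transferase, which attaches sugars to proteins entering the ER, 1 fell, where 9.80% of all genes fell. Against genes of similar level 6 were above in both sets and 0 below in both, beside 26.6% and 26.5% of all genes. The median of -0.02 in set 1 was the highest of the 6 groups there, and that of set 2 was -0.29. The gene that fell was the catalytic subunit Stt3b, at 38.1 FPKM in control 1 and 17.3 in Chd1-/- 1, and at 22.5 in control 2 and 18.4 in Chd1-/- 2 (mean log2 ratio -0.71, SE 0.21, limma adjusted p = 0.0154). It stood apart from the group in set 1 alone (log2 ratio -1.14), and in set 2 it was at the group median (-0.29). Stt3a, the alternative catalytic subunit, was named for comparison. Its log2 ratios were 0.02 and 0.04.

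**Figure D4:**
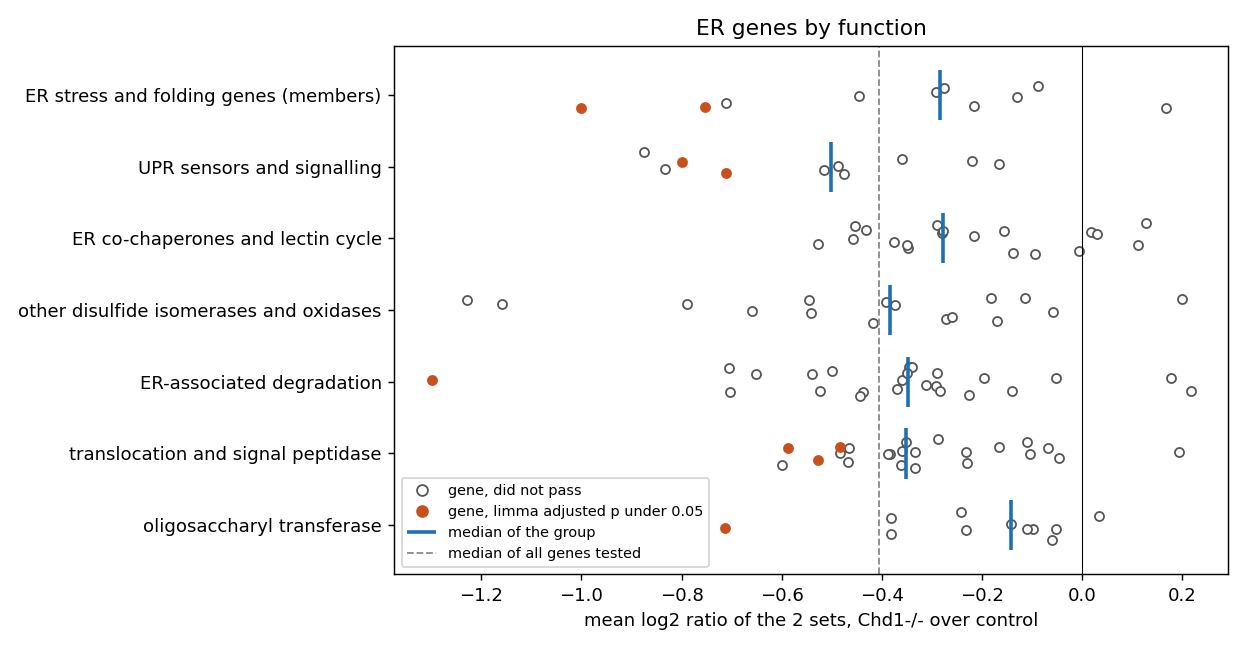
Mean log2 ratio of the sets (x axis, Chd1-/- over control) of each tested ER gene by functional group, with genes that passed the test on values as deposited filled in orange, group medians in blue and the median of all tested genes (-0.41) dashed. The stress and folding genes have a median of -0.28, sensors and signalling genes -0.50 and the oligosaccharyl transferase -0.14, and every filled point lies to the left of 0.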

How the data were processed

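RNA-seq values were taken from 2 deposited tables, each with 1 control and 1 Chd1-/- library. The deposited values were taken as FPKM. The file headers do not name the unit, which was inferred from the submitters' processing notes (TopHat2 2.0.10, TopHat, Cufflinks 2.2.0, Cuffdiff and mouse build mm9) and from the values. Neither the annotation nor the use made of the 92 ERCC spike-in transcripts is stated in the labels. A deposited ratio equalled Chd1-/- over control within a relative difference of 4.97e-06 and was not used further. Read depth is unknown, so no counting interval is given. The lowest value was 0.100 FPKM.

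Tables were joined by symbol, leaving out loci without a symbol, merged loci and repeated symbols. Genes whose mean over all 4 libraries reached 1 FPKM were tested on log2(FPKM + 0.1), a scale that understates changes of low genes, with limma 3.58.1 in R 4.3.3 (lmFit, eBayes with a trend of variance on level), two-sided, with Benjamini-Hochberg adjustment at 0.05. Set was a block, since the labels number the sets and each has its own table. Deviations of same-set libraries from their group means correlated (r = 0.483 across genes). With 1 residual degree of freedom and prior degrees of freedom of Inf, a gene's own spread between sets does not enter its p on values as deposited. With 2 pairs an exact sign-flip test could not pass. Departures were tested alike, after subtracting the median ratio of the 200 genes on either side in level. The code was tested on simulated data. All members are named, then, of each group of the wider list, up to 4 genes that passed with 1 sign in both sets, by size of change, or else the 1 with the largest change. The members and lists were chosen with earlier results of these data known.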

Additional observations from a re-analysis of the deposited data

Results flagged for a closer look

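Pdia3 changed in opposite directions in the sets, with a log2 ratio of Chd1-/- over control of -1.08 in set 1 and 0.18 in set 2. With 1 library per group in each set, the difference was not tested. Control 1 (52.2 FPKM) lay above the other libraries, which ranged from 24.7 to 30.4 FPKM.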

How the results depend on the processing

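The sets pair the libraries, so the tests held a block for set. With no replicate block, and with 1 common prior variance, 0 members and 0 genes of the wider ER list passed on values as deposited, against 2 and 7. With a mean of at least 5 FPKM 1 member (Xbp1) and 1 wider-list gene passed. With each library scaled to its total 1 of each passed, the member being Calr and the other Erp29 (named after its values were seen), both higher, and over all genes 37 fell and 50 rose (against 1006 and 7), since that scaling moved the median gene from -0.46 to -0.14 in set 1 and from -0.33 to 0.14 in set 2. With a pseudocount of 1, 4 wider-list genes passed. Against genes of similar level 0 members and 0 wider-list genes passed under any alternative run, the replicate block left out included. Chd1 did not pass this test in the main run (limma adjusted p = 0.25), so these counts cannot show an absence of change. Scaled to totals, changes turned positive for Hspa5 (0.31), Hsp90b1 (0.11), Canx (0.27), Pdia4 (0.18) and Pdia6 (0.12), and the members' medians became 0.047 in set 1 and 0.18 in set 2. With a mean of at least 5 FPKM these medians were -0.23 and -0.26, 9 members being left. Against the median of all genes in the set in place of similar genes, the members' median departure was 0.18 in set 1. Leaving out a set leaves no residual degrees of freedom, so it gives values and no count of calls. Single-set values ranged from -1.08 to 0.18 for Pdia3. As departures they ranged from -0.79 to 0.55 for Pdia3, from -0.11 to 0.11 for Hsp90b1, from -0.014 to 0.050 for Pdia6, from -0.35 to 0.12 for Dnajc3, from -1.76 to 0.12 for Syvn1 and from -0.82 to 0.13 for Stt3b. The causes of these shifts were not tested. FPKM gives no depth, which limits Atf6 and other low genes most.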

Other observations

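Fkbp2, a prolyl isomerase of the ER picked out after its values were seen, moved in opposite directions by large amounts. It was at 5.96 FPKM in control 1 against 12.5 in Chd1-/- 1, and at 21.1 in control 2 against 6.84 in Chd1-/- 2 (log2 ratios 1.06 and -1.61). Ddit3, the stress-induced factor CHOP, also picked out after its values were seen, was low in all 4 libraries, at 2.41 FPKM in control 1, 1.10 in Chd1-/- 1, 0.642 in control 2 and 1.05 in Chd1-/- 2. Manf, a secreted ER stress protein chosen the same way, was at 33.0 FPKM in control 1 against 33.8 in Chd1-/- 1, and at 33.2 in both libraries of set 2.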
